A study of Rattus norvegicus with 6 samples.

Results

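The miR-200 family, miR-203, miR-205 and miR-375 are the miRNAs by which epithelial and endocrine cells are usually recognised, and they were followed here in the trigeminal ganglion after injury of a facial nerve. All deposited rows whose name has the stem miR-200a, miR-200b, miR-200c, miR-141, miR-429, miR-203a, miR-203b, miR-205 or miR-375 were taken, with either strand, which gave 15 of the 650 mature miRNAs in the table. Ganglia came from Sprague-Dawley rats aged 8 to 10 weeks, on the operated side, 14 days after surgery. In 3 libraries, called CCI-ION (chronic constriction injury of the infraorbital nerve), the left nerve carried loose silk ligatures. In the 3 sham libraries the same nerve was exposed and left unligated. The labels do not say whether a library is 1 animal or a pool, so the p-values below reflect the variation among these 6 libraries, whose technical share is unknown.

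The miR-200 family holds epithelial cells in their state by repressing the transcription factors ZEB1 and ZEB2, which in turn repress the miR-200 genes. TGF-beta signalling shifts this loop towards the mesenchymal state. miR-205, a miRNA of basal keratinocytes and glands, also targets ZEB1 and ZEB2. miR-203 marks differentiating keratinocytes and restrains p63, and miR-375 is the miRNA of pancreatic islets, pituitary and other neuroendocrine cells. A sensory ganglion is built of neurons, satellite glia, Schwann cells, vessels and connective tissue and has no epithelium of its own. In bulk tissue, fewer cells of a type and less RNA per cell cannot be told apart.

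The 5 main strands of the miR-200 family are shown first because their seeds (bases 2 to 8, in capitals), which select the targets, fall into a pair of groups that differ by 1 base. Sequences are 5′ to 3′ as deposited, with T for U and the rat prefix rno, and all 15 were found inside RefSeq hairpins of the GRCr8 build.
rno-miR-200b-3p: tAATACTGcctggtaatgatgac
rno-miR-200c-3p: tAATACTGccgggtaatgatg
rno-miR-429: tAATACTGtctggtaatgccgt
rno-miR-200a-3p: tAACACTGtctggtaacgatgt
rno-miR-141-3p: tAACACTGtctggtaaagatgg

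In the deposited table these 5 miRNAs were the only carriers of either seed, 3 of one and 2 of the other. The seed groups do not follow the genes. Mir200b, Mir200a and Mir429 lie within 1908 bases at chr5:171929682-171931589 and Mir200c and Mir141 within 509 bases at chr4:159209525-159210033, all on the minus strand (RefSeq, GRCr8). Mir200b, Mir200a and Mir429 overlap the annotated span of Ttll10, and Mir141 and Mir200c lie between Phb2 and Ptpn6. Over 21 bases miR-200b-3p and miR-200c-3p differ by 1 substitution, T11G, counted from the 5′ end of miR-200b-3p. Over 22 bases miR-200a-3p and miR-141-3p differ by 2, C17A and T22G, counted from the 5′ end of miR-200a-3p. The sources used here do not say how reads close to both members of a pair were assigned, so the split within each of these pairs is uncertain.

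The remaining members are shown because they carry the results on keratinocyte and endocrine miRNAs, and because both miR-203 genes are read from opposite strands of the same DNA.
rno-miR-205: tCCTTCATtccaccggagtctgt
rno-miR-375-3p: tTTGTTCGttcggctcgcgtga
rno-miR-203a-3p: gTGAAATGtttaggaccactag
rno-miR-203b-5p: aGTGGTCCtaaacatttcac
rno-miR-203b-3p: tTGAACTGttaagaaccactgg

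No other listed miRNA shared a seed with any of these 5. The hairpin of miR-203a lies at chr6:137020705-137020801 on the plus strand, inside that of miR-203b (RefSeq symbol Mir3545) at chr6:137020691-137020805 on the minus strand. All 20 bases of miR-203b-5p are the reverse complement of miR-203a-3p, so counting that ignored strand could not tell reads of one from the other. The sources used here do not say whether the counting used strand. Mir205 lies at chr13:107564535-107564642 next to Camk1g. Mir375 lies at chr9:83906582-83906656, overlapping the annotated span of Cryba2, a crystallin gene.

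Each library held between 6420434 and 12560545 miRNA counts, so that a floor of 3 counts stood at 0.239 to 0.467 CPM, the unit of counts scaled to a common miRNA total. Both libraries numbered 1 had the largest totals behind the deposited RPM values (reads scaled to a library total larger than the miRNA counts), 24025572 and 24259518, against 13793797 to 15228984 in the other 4. Libraries of the same number also deviated together from their group means over all tested miRNAs (r = 0.664, 0.591 and 0.457 for numbers 1 to 3), so values from a fit with the number as a block are given where they change a call. This block was chosen from the same counts, and no label states a pairing. Ganglion miRNAs were abundant: the miR-182, miR-183 and miR-96 cluster of sensory neurons summed to between 34705 and 45642 CPM in a library, and 5 neuronal miRNAs led by miR-9a-5p to between 15069 and 21628.

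Against that, the epithelial and endocrine miRNAs were minor. All 15 together held 0.0425% ± 0.0065 of the miRNA counts in the sham libraries and 0.0388% ± 0.0061 in the CCI-ION libraries (SD, n = 3 each), and the groups overlapped. By library the share was 0.0488%, 0.0427% and 0.0359% in sham 1 to 3 and 0.0454%, 0.0377% and 0.0333% in CCI-ION 1 to 3, so CCI-ION was lower in each pair of the same number. As a share of the larger totals behind the RPM values, the groups did not overlap (0.0239% to 0.0284% in sham, 0.0173% to 0.0206% in CCI-ION). No test was made of either sum. All miRNAs together held 61.8% ± 8.25 of those totals in sham and 49% ± 5.87 in CCI-ION (SD, n = 3 each). On that scale 29.4% of all tested miRNAs had groups apart with CCI-ION lower. By mean share of the miRNA counts, miR-375-3p held 0.0187% in sham and 0.0109% in CCI-ION. The miR-200 family 3p strands (0.0107% and 0.0108%), the miR-203 strands (0.0073% and 0.0083%) and miR-205 (0.0057% and 0.0088%) were not lower. The lower mean CCI-ION share of miRNA counts thus came from miR-375-3p and does not describe the set as a whole. Levels below are CPM scaled by TMM factors. In the order of mean level over the 6 libraries, miR-375-3p stood at 145.2 CPM, miR-205 at 72.4, miR-203a-3p at 69.8 and miR-200b-3p at 58.6. miR-200a-3p followed at 30.7, miR-200c-3p at 11.7, miR-203b-5p at 6.72, miR-429 at 4.64, miR-141-3p at 2.56 and miR-203b-3p at 1.49. The only neighbours in this order whose ranges over the 6 libraries were apart were miR-200a-3p and miR-200c-3p. The order of miR-375-3p and miR-205 held in 4 of 6 libraries and that of miR-203a-3p and miR-200b-3p in 3 of 6, so these 4 have no fixed rank.

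**Figure D1:**
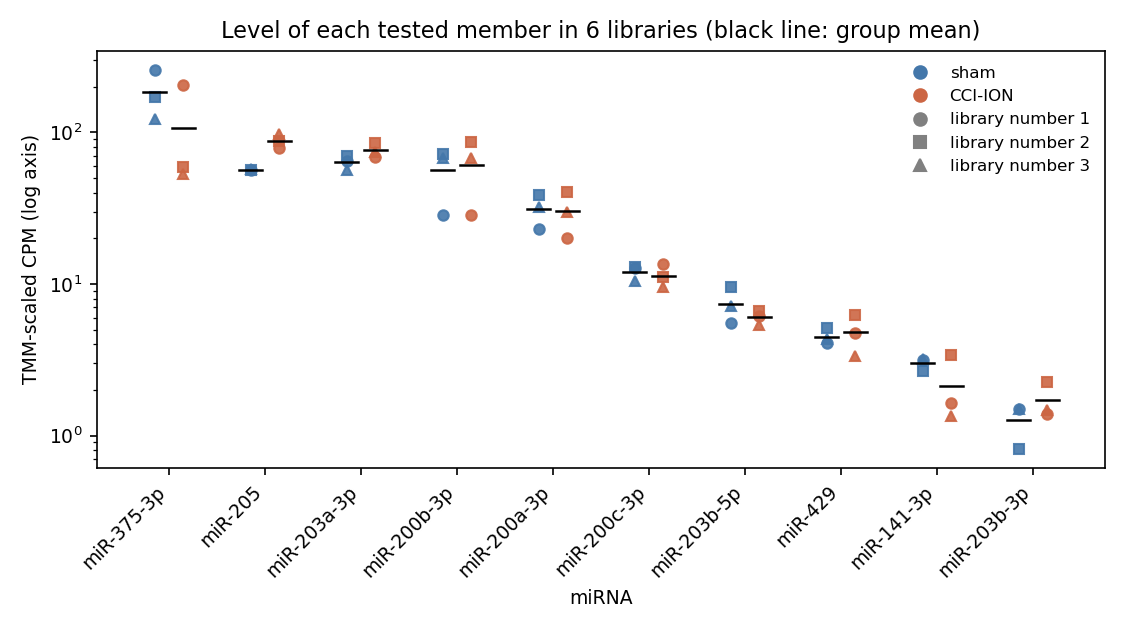
TMM-scaled CPM on a log axis for the 10 members that passed the filter on low counts, with sham in blue, CCI-ION in orange, the marker shape giving the library number and the black line the group mean. Sham and CCI-ION are apart for miR-205 alone, and for miR-200b-3p both libraries numbered 1 (28.6 and 28.4 CPM) lie below the other 4.

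The strand kept from each hairpin was the 3p strand for the miR-200 family. Over the 6 libraries miR-200a gave 1715 counts of the 3p and 14 of the 5p strand, miR-200b 3136 and 16, miR-200c 698 and 1, and miR-141 150 and 18. miR-203a gave 3992 counts of the 3p strand and 4 of the 5p strand. miR-203b was the exception, with 391 counts of the 5p strand and 84 of the 3p strand, and its 5p strand is the one opposite miR-203a-3p. The 5p strands of miR-200a, miR-200b, miR-200c, miR-141 and miR-203a had 0 to 7 counts in a library, did not pass the filter and were not tested. The other 10 members were.

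By design, the 2 groups show how ganglia of ligated and sham-operated nerves differ at a single time. None of the 10 tested members was called between CCI-ION and sham by edgeR's quasi-likelihood test (Benjamini-Hochberg adjusted p under 0.05), where 0.648% of all 463 tested miRNAs were called. miR-205 alone had an unadjusted p under 0.05, as did 9.94% of all tested miRNAs. Of the 10, 5 had negative and 5 positive log2 fold changes, with a median of 0.01, and 48.8% of all tested miRNAs were negative, with a median of 0.01. With the replicate block edgeR called 1 of the 10, miR-205, as higher, against 11.7% of all tested miRNAs (6.05% in that direction).

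miR-205 was the member with the clearest difference. It stood at 56.9, 56.1 and 56.9 CPM in sham libraries 1 to 3 and at 79.4, 87.5 and 97.9 in CCI-ION libraries 1 to 3. The sham libraries were nearly identical, every CCI-ION library was above all of them, and the groups did not overlap. The sham values lay closer together than counting error alone. Their exact Poisson 95% intervals were 52.9 to 61.1, 51.5 to 61.0 and 52.3 to 61.8 CPM. Their small SD is therefore no measure of how tightly sham libraries are held. miR-205 was the only one of the 10 tested members whose groups were apart in CPM, against 13.8% of all tested miRNAs (6.7% with CCI-ION higher). The means were 56.6 ± 0.47 and 88.3 ± 9.29 CPM (SD, n = 3 each), 1.56-fold higher in CCI-ION.

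edgeR gave miR-205 a log2 fold change of 0.64 ± 0.14 (SE) with an adjusted p of 0.156, so it was not called without the block. With the replicate block edgeR called it higher (0.63 ± 0.12, adjusted p = 0.000101), as did DESeq2 with the block (adjusted p = 0.000211; 9.5% of all tested called) and limma-voom with the block (adjusted p = 0.0135; 8.42% called). Without the block DESeq2 also called it (adjusted p = 0.00438; 1.94% called) and limma-voom did not (adjusted p = 0.173; 0.648% called). The blocked edgeR call was lost without the libraries numbered 3 (0.55 ± 0.16, adjusted p = 0.151; 1.07% of all tested called). It held without those numbered 1 (0.71 ± 0.14, adjusted p = 0.00717; 9.93% called) or 2 (0.64 ± 0.14, adjusted p = 0.0417; 6.68% called).

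On the deposited RPM scale miR-205 was at 31.5, 36.2 and 37.4 in sham and 38.0, 38.8 and 52.8 in CCI-ION. The groups were still apart, but the lowest CCI-ION library lay close to the highest sham library. Only 1.08% of all tested miRNAs were apart with CCI-ION higher on this scale, where the median of all tested miRNAs was at -0.34 on the log2 scale without the block. The miRNA share of the total behind the RPM was 61.8% ± 8.25 in sham and 49% ± 5.87 in CCI-ION (SD, n = 3 each). Scaled to those totals miR-205 was not called with the block (0.29 ± 0.16, edgeR adjusted p = 0.142; 34.1% of all tested called).

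**Figure D2:**
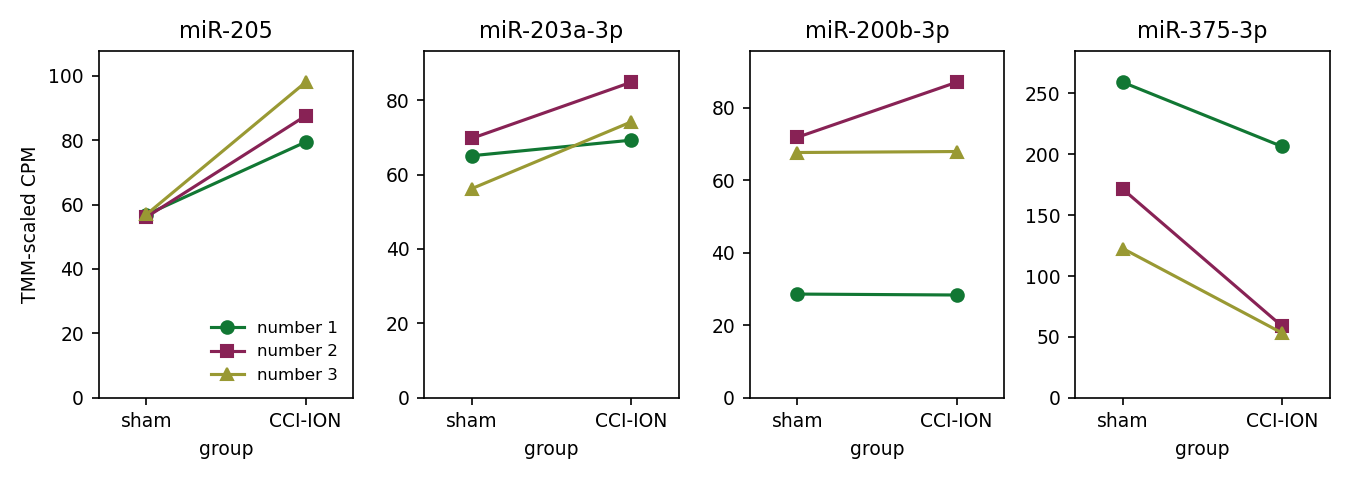
TMM-scaled CPM from 0 of miR-205, miR-203a-3p, miR-200b-3p and miR-375-3p in sham and CCI-ION, with a line joining libraries of the same number. All 3 lines slope up for miR-205 and miR-203a-3p and down for miR-375-3p, while miR-200b-3p starts and ends low on the line of number 1.

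miR-203a-3p, the other keratinocyte miRNA, had a smaller difference. Its levels were 65.0, 69.7 and 56.2 CPM in sham and 69.2, 84.8 and 74.1 in CCI-ION, and the groups overlapped through sham library 2 and CCI-ION library 1. CCI-ION was above the sham library of the same number in 3 of 3 pairs, which held for 20.1% of all tested miRNAs, and only miR-205 among the other members shared this. The log2 fold change was 0.26 ± 0.16 (edgeR adjusted p = 0.776), and 0.26 ± 0.12 with the block (adjusted p = 0.216). With the totals behind the RPM as the scale its value was -0.09 ± 0.21, so its sign depended on the scale.

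The ratio of miR-205 to miR-203a-3p counts within a library does not depend on any scaling. It was 0.874, 0.804 and 1.01 in sham and 1.15, 1.03 and 1.32 in CCI-ION. The groups were apart, with every CCI-ION library above all sham libraries (exact permutation test, two-sided, p = 0.1, the least that 3 against 3 allow; 0.7 adjusted over the 7 ratios computed, which were chosen after the values were seen). The antisense strand miR-203b-5p was at 5.56, 9.57 and 7.13 CPM in sham and 6.12, 6.60 and 5.38 in CCI-ION, overlapping, with a log2 fold change of -0.29 ± 0.26 (edgeR adjusted p = 0.899). Its counts were 0.0726 to 0.137 times those of miR-203a-3p. miR-203b-3p had 8 to 20 counts in a library and 1.27 ± 0.40 and 1.70 ± 0.48 CPM (SD, n = 3 each).

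miR-375-3p was the most abundant member on average and, of the 10 tested, the one with the highest coefficient of variation (56.6% over the 6 libraries). It stood at 259.1, 171.3 and 122.6 CPM in sham libraries 1 to 3 and at 206.4, 58.9 and 53.3 in CCI-ION libraries 1 to 3. CCI-ION libraries 2 and 3 were below every sham library, while CCI-ION library 1 lay above sham libraries 2 and 3. It was lower in CCI-ION in 3 of 3 pairs of the same number, as were 23.5% of all tested miRNAs, by 0.797, 0.344 and 0.435 times. The SD of its log2 CPM over the 6 libraries was 0.95, larger than in 97.4% of all tested miRNAs, whose median was 0.29.

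The log2 fold change of miR-375-3p was -0.79 ± 0.55 (edgeR adjusted p = 0.789) and, with the block, -1.01 ± 0.30 (adjusted p = 0.213). DESeq2 and limma-voom with the block called it lower (adjusted p = 0.0357 and 0.0312). With TMM scaling, whether edgeR called it depended on the libraries numbered 1. Without them edgeR with the block called it lower (-1.37 ± 0.14, adjusted p = 5.59e-05), but not without those numbered 2 (-0.74 ± 0.19, adjusted p = 0.0773) or 3 (-0.92 ± 0.31, adjusted p = 0.353). Without CCI-ION library 1 edgeR without the block also called it lower (-1.72 ± 0.30, adjusted p = 0.0217; 1.51% called). Leaving out sham library 1, CCI-ION library 2 or CCI-ION library 3 brought the unblocked value to between -0.50 and -0.46, with no call.

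On the RPM scale miR-375-3p was at 143.6, 110.5 and 80.6 in sham and 98.7, 26.1 and 28.7 in CCI-ION. The groups overlapped there too, through CCI-ION library 1. Scaled to the totals behind the RPM, with the block, it was called lower (-1.36 ± 0.30, edgeR adjusted p = 0.0217), against a median over all tested miRNAs of -0.35.

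**Figure D3:**
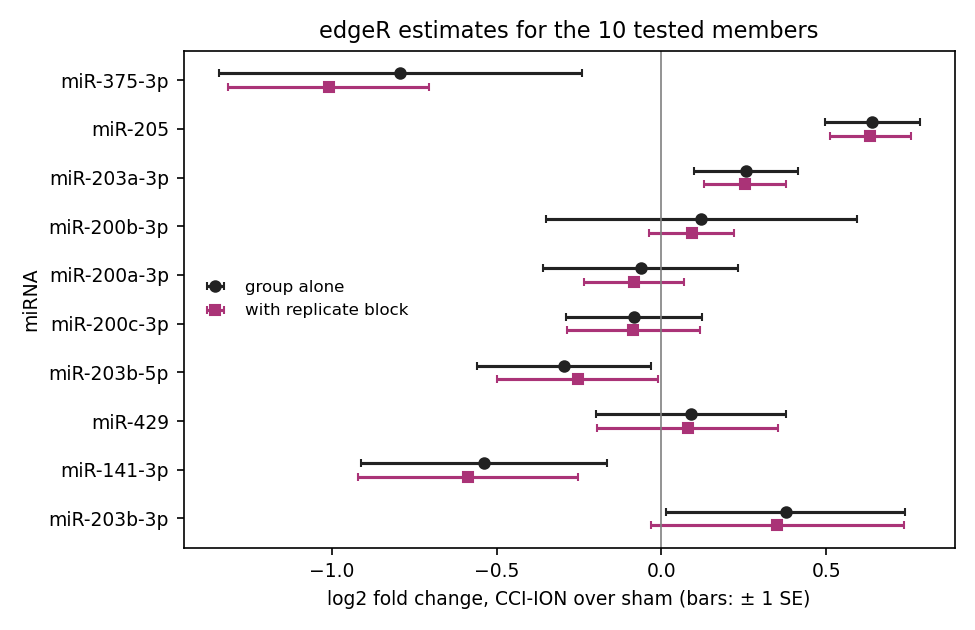
edgeR log2 fold changes of CCI-ION over sham with bars of 1 SE for the 10 tested members, in black from the fit on group alone and in purple with the replicate block. miR-205 lies at 0.64 and 0.63, miR-375-3p at -0.79 and -1.01, and the block narrows the bar of miR-200b-3p from 0.47 to 0.13.

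The miR-200 family itself showed no call between the groups. miR-200b-3p, its most abundant strand, was at 28.6, 71.9 and 67.7 CPM in sham libraries 1 to 3 and at 28.4, 87.0 and 67.9 in CCI-ION libraries 1 to 3. The groups overlapped fully, and the low value in each group was the library numbered 1. The log2 fold change was 0.12 ± 0.47 without and 0.09 ± 0.13 with the block (edgeR adjusted p = 0.98 and 0.732). Its cluster partner miR-200a-3p was at 23.1, 38.9 and 32.0 CPM in sham and 20.1, 40.2 and 30.0 in CCI-ION. Both groups had the order 1, 3, 2 from low to high, and the log2 fold change was -0.06 ± 0.30 (edgeR adjusted p = 0.987).

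miR-429, the last of the chromosome 5 cluster, had 25 to 55 counts in a library and 4.06, 5.09 and 4.32 CPM in sham against 4.74, 6.27 and 3.36 in CCI-ION. Its highest and lowest libraries were both CCI-ION, and the log2 fold change was 0.09 ± 0.29 (edgeR adjusted p = 0.974). Counts of miR-429 were 0.112 to 0.236 times those of miR-200a-3p, although both come from 1 cluster.

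From the chromosome 4 cluster, miR-200c-3p was at 12.8, 13.0 and 10.4 CPM in sham and 13.4, 11.1 and 9.55 in CCI-ION. The groups overlapped, and the libraries numbered 1 were not low, unlike for miR-200b-3p. The log2 fold change was -0.08 ± 0.21 (edgeR adjusted p = 0.947). On the RPM scale its groups were apart, with CCI-ION lower (6.87 to 8.41 in sham, 4.93 to 6.43 in CCI-ION), as in 29.4% of all tested miRNAs.

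miR-141-3p, from the same cluster, was at 3.15, 2.65 and 3.21 CPM in sham and 1.64, 3.38 and 1.35 in CCI-ION. CCI-ION libraries 1 and 3 were below every sham library and CCI-ION library 2 above all of them. These values rest on 10 to 42 counts, and the 10 counts of CCI-ION library 3 have an exact Poisson 95% interval of 4.80 to 18.4 counts, for counting error only. The log2 fold change was -0.54 ± 0.37 (edgeR adjusted p = 0.789). Scaled to the totals behind the RPM, miR-141-3p and miR-375-3p were the 2 of 10 tested members called with the block, both lower (miR-141-3p -0.93 ± 0.34, edgeR adjusted p = 0.035), where 32.8% of all tested miRNAs were called lower.

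On the RPM scale 4 of the 10 tested members had groups apart, against 30.5% of all tested miRNAs: miR-205 was higher, and miR-141-3p, miR-200c-3p and miR-203b-5p were lower in CCI-ION. Mean RPM was lower in CCI-ION for 8 of the 10 tested members and for 85.5% of all tested miRNAs. The median log2 fold change of the 10 members under these totals was -0.35, and that of all tested miRNAs -0.34.

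Count ratios between members were compared within each library. The ratio of miR-200b-3p to miR-200a-3p counts was 1.24 and 1.41 in sham and CCI-ION libraries 1 and 1.85 to 2.26 in the other 4. The ratio of miR-200c-3p to miR-200b-3p was 0.446 and 0.474 in libraries 1 and 0.128 to 0.181 in the others. miR-375-3p had 9.05 and 7.28 times the counts of miR-200b-3p in libraries 1 and 0.677 to 2.38 times in the others. In these 3 ratios both libraries numbered 1 stood apart from the other 4, which are also the more shallowly sequenced, and the part of depth in this was not tested.

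**Figure D4:**
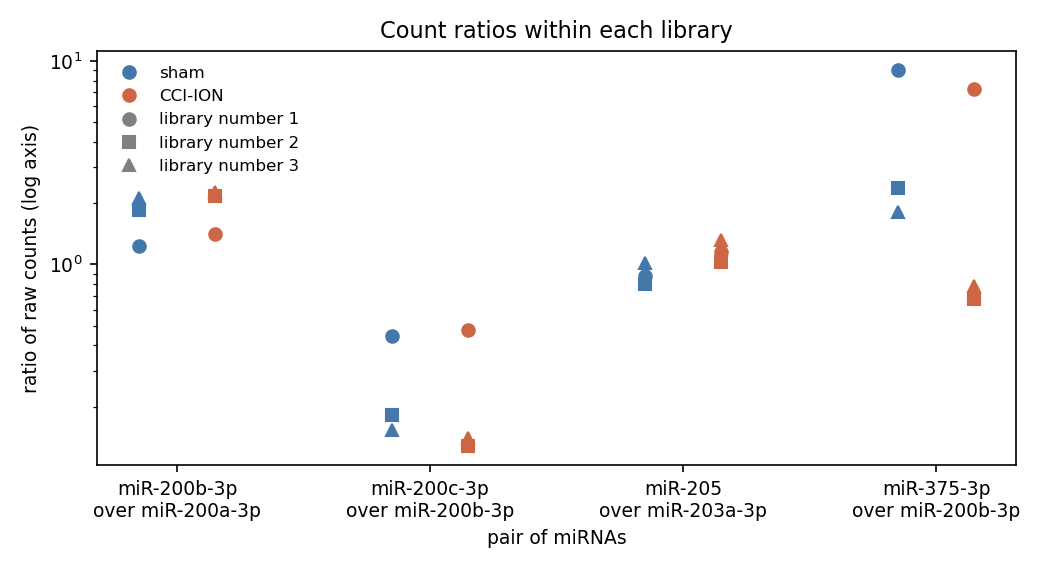
Ratios of raw counts within each library on a log axis, for 4 pairs of members, with sham in blue, CCI-ION in orange and the marker shape giving the library number. Circles, the libraries numbered 1, stand apart for miR-200b-3p over miR-200a-3p, miR-200c-3p over miR-200b-3p and miR-375-3p over miR-200b-3p, while the groups are apart for miR-205 over miR-203a-3p.

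As shares of the members' own counts, miR-375-3p made up 56.2% in sham library 1 and 47.9% in CCI-ION library 1, but 33.7% to 38.9% in sham libraries 2 and 3 and 15.1% to 15.4% in CCI-ION libraries 2 and 3. The chromosome 5 cluster made up 12.1% and 12.3% in libraries 1 and 26.3% to 34.3% in the others. The chromosome 4 cluster stayed between 3.16% and 3.76% in all 6. miR-205 made up 12.3% to 15.7% in sham and 18.4% to 28.4% in CCI-ION. These groups were apart, but this measure is not independent of the counts above. Its denominator includes miR-375-3p, whose lower share in CCI-ION raises the shares of the other members. The separation in this measure therefore adds nothing to the miR-205 result.

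**Figure D5:**
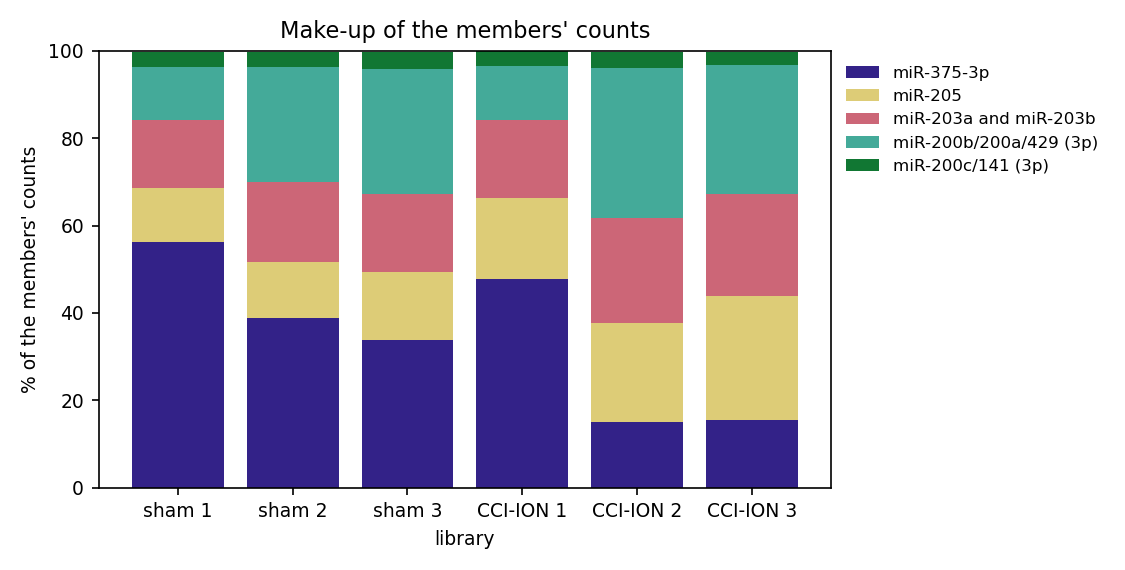
Stacked bars of the percentage of the members' counts held by miR-375-3p, miR-205, the miR-203a and miR-203b strands and the 3p strands of both miR-200 clusters in each library; the 5p strands of the miR-200 family are too few to show. miR-375-3p takes 56.2% and 47.9% in the libraries numbered 1, and miR-205 takes 12.3% to 15.7% in sham and 18.4% to 28.4% in CCI-ION.

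The 6 members with a mean of at least 10 CPM were also set against the 453 other tested miRNAs by the root mean square difference of centred log2 CPM over the 6 libraries, where smaller is more alike. For miR-205 the nearest was miR-146b-5p, which dampens inflammatory signalling, at 0.063, followed by miR-487b-5p at 0.088 and miR-323-3p at 0.118 (median over all 0.431). miR-146b-5p stood at 5560, 5956 and 6138 CPM in sham and 7806, 8670 and 9391 in CCI-ION, so both miRNAs had the same order of libraries within CCI-ION and groups apart. For miR-375-3p the nearest was miR-7b, of the endocrine and neuronal miR-7 family, at 0.425, with miR-1224 at 0.43 and miR-33-5p at 0.483 (median 0.894). The smallest difference of miR-375-3p was thus larger than that of miR-205, but the measure is not scaled by spread. The SD of log2 CPM was 0.95 for miR-375-3p and 0.36 for miR-205, so looser likeness cannot be told from larger variation.

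Within the miR-200 family, the nearest miRNA was an outside one for each of the 3 strands with at least 10 CPM. miR-200b-3p and miR-200a-3p differed by 0.329, while the nearest outside miRNA to miR-200b-3p was let-7a-1-3p/let-7c-2-3p at 0.134 and to miR-200a-3p miR-499-5p at 0.079. The nearest to miR-200c-3p were miR-872-5p and miR-101b-3p, both at 0.074, against 0.774 to miR-200b-3p of the same seed. miR-203a-3p was nearest to miR-222-3p (0.1) outside the set and to miR-205 (0.236) within it. With 453 candidates outside against 5 within the set, and 6 libraries, a closer match outside was likely in any case. The measure also counts a difference in the size of variation. The SD of log2 CPM was 0.71 for miR-200b-3p and 0.40 for miR-200a-3p. It therefore cannot show whether cluster partners vary together, and these are descriptions.

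Other miRNAs linked to epithelia or to the epithelial-mesenchymal balance came from lists chosen with earlier results of these data known. With the block edgeR called 11.7% of all tested miRNAs (6.05% as higher), and on group alone 0.648%. Of 2 tested stratified epithelium miRNAs, miR-184, of cornea and lens, rose with the block (18.8 ± 8.04 to 34.7 ± 11.6 CPM, n = 3 each, log2 fold change 0.90 ± 0.16, edgeR adjusted p = 2.85e-05), and miR-31a-5p, of keratinocytes, did not (7.64 ± 0.81 and 7.58 ± 1.00 CPM). Of 3 tested columnar epithelium miRNAs, miR-215 fell with the block (7.18 ± 4.05 to 2.10 ± 1.07 CPM, -1.80 ± 0.32, edgeR adjusted p = 2.85e-05), while miR-192-5p (363.9 ± 29.4 and 373.4 ± 43.9 CPM) and miR-194-5p were not called. In the fit on group alone neither was called (edgeR adjusted p = 0.482 for miR-184 and 0.316 for miR-215). Of 4 tested strands of the miR-182, miR-183 and miR-96 cluster, shared by sensory cells and epithelia, none was called in either fit. On the totals behind the RPM, with the block, miR-183-5p and miR-96-5p were called lower (edgeR adjusted p = 0.0117 and 0.00847). On that scale 32.8% of all tested miRNAs were called lower.

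The calls with the block in these further lists also stand against 11.7% of all tested miRNAs (6.05% as higher). Of 4 tested miR-7 strands, which share endocrine cells with miR-375, miR-7a-5p and miR-7b fell with the block and none rose. Neither was called on group alone (edgeR adjusted p = 0.448 and 0.432), and the miR-7b groups overlapped in CPM. The summed level of the 4 strands was 2889 to 4450 CPM in sham and 2133 to 2671 in CCI-ION, without overlap. Most of this sum was miR-7a-5p (3195 ± 779 and 2196 ± 308 CPM), and its part in the miR-375-3p values was not tested. Of 12 tested miRNAs linked to TGF-beta and the epithelial-mesenchymal transition, 3 rose with the block (miR-155-5p, miR-221-3p and miR-21-5p) and miR-34a-5p fell, and none was called on group alone. On the totals behind the RPM, with the block, miR-155-5p and miR-221-3p were not called (edgeR adjusted p = 0.221 and 0.61). In that fit miR-21-5p was still called higher (adjusted p = 0.0159). The strands miR-29a-3p, miR-29b-3p, miR-29c-3p, miR-34a-5p, miR-101a-3p and miR-101b-3p were called lower there, as were 32.8% of all tested miRNAs. The median of the list without the block was -0.07, against 0.01 for all tested miRNAs. Of 7 tested mesenchymal miRNAs, miR-199a-5p alone rose with the block (1110 ± 279 to 1521 ± 482 CPM, 0.43 ± 0.11, edgeR adjusted p = 0.00383). It was not called on group alone (0.45 ± 0.29, adjusted p = 0.776) or, with the block, on the totals behind the RPM (0.08, adjusted p = 0.704), and the median of the list without the block was 0.25.

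Another list, the miR-216 and miR-217 cluster, known from the pancreas as miR-375 is, was lower in CCI-ION. miR-216b-5p fell from 84.9 ± 7.17 to 23.4 ± 2.73 CPM and miR-216a-3p from 33.5 ± 4.58 to 11.3 ± 1.94 (SD, n = 3 each), both called on group alone (edgeR log2 fold changes -1.86 ± 0.16 and -1.57 ± 0.20, adjusted p = 0.00246 and 0.015). All 4 tested strands fell with the block, where edgeR called 11.7% of all tested miRNAs (0.648% on group alone). Their summed level of 155 to 217.5 CPM in sham and 56.6 to 59.2 in CCI-ION did not overlap. What part this cluster has in the miR-375-3p values was not tested.

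Marker lists of other cells gave further calls, against 11.7% of all tested miRNAs called by edgeR with the block and 0.648% on group alone. Of 4 tested strands linked to myelinating glia, miR-219a-1-3p rose from 4.77 ± 1.08 to 15.1 ± 2.08 CPM (SD, n = 3 each; edgeR log2 fold change 1.66 ± 0.24 on group alone, adjusted p = 0.0239), while the summed level of the list overlapped (5757 to 6715 CPM in sham, 4927 to 5985 in CCI-ION). The strands miR-338-3p (1885 ± 292 and 1714 ± 370 CPM), miR-338-5p (4265 ± 287 and 3717 ± 333) and miR-219a-2-3p (68.8 ± 92.2 and 94.0 ± 87.5) were not called in either fit. On the totals behind the RPM, with the block, miR-338-3p and miR-338-5p were called lower (edgeR adjusted p = 0.016 and 0.00779) and miR-219a-1-3p higher (5.3e-05). On that scale 32.8% of all tested miRNAs were called lower. The 5 leukocyte miRNAs summed to 222.3 to 266.2 CPM in sham and 284.2 to 331 in CCI-ION, without overlap. Most of that sum was miR-150-5p (162.9 ± 5.48 and 185.7 ± 28.9 CPM). Its groups overlapped, as did those of miR-142-5p and miR-223-3p, and none of these was called in either fit. By contrast, miR-142-3p and miR-155-5p, the latter also on the TGF-beta list, rose with the block. Neither was called on group alone (edgeR adjusted p = 0.316 and 0.432) or, with the block, on the totals behind the RPM (adjusted p = 0.052 and 0.221). The 5 neuronal miRNAs summed to 18320 to 21628 CPM in sham and 15069 to 18830 in CCI-ION, overlapping, and 4 of them fell with the block. Most of this sum was miR-9a-5p (13124 ± 1893 and 12239 ± 2591 CPM), which was not called. The CPM groups of miR-124-3p, miR-128-3p and miR-129-5p were apart, with CCI-ION lower, and those of miR-9a-5p and miR-138-5p overlapped. Groups were apart in either direction for 13.8% of all tested miRNAs. The 6 skeletal muscle miRNAs summed to 5605 to 11305 CPM in sham and 3684 to 9054 in CCI-ION, also overlapping, 2 of them lower with the block. No erythroid marker was called in either fit, but on the totals behind the RPM, with the block, miR-144-3p was lower (-0.58, edgeR adjusted p = 0.0375). No leukocyte, neuronal, muscle or erythroid marker was called on group alone. What part these markers have in the values of miR-205 and miR-375-3p was not tested.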

How the data were processed

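The members and lists were chosen with earlier results of these data known. The authors deposited raw counts per mature miRNA and, per library, RPM values. Reads were handled with cutadapt 1.14 and Bowtie 1.1.1 on rn6, per the submitters' processing notes; the sources used here name neither the counter nor the annotation. The deposited RPM equal the counts times 1 constant per library (100% whole reads within 0.01). The total behind them exceeds the summed miRNA counts, and its definition is not stated.

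Counts of all 6 libraries were fitted with edgeR 4.0.16 in R 4.3.3 (quasi-likelihood, robust, TMM, filterByExpr), with group alone as the main fit. SE is the size of the log2 fold change over the square root of F. Of 650 miRNAs 463 were tested, and called means an adjusted p under 0.05. DESeq2 1.42.0, limma 3.58.1, other scalings, filters, the replicate block and left-out libraries were alternatives. Deviations from the group means correlated at 0.457 to 0.664 between same-numbered libraries and at -0.614 to 0.167 in the other 6 combinations. The numbers were treated as pairing, which rests on these counts and on no label. Deviations cancel out within a group, so positive same-number values push the other combinations down. The contrast between them is therefore no separate evidence. The block was chosen from the same counts that it was then used to test. The procedure was also run on counts simulated from the models fitted to these data. That run takes each model as right, so it cannot show whether the pairing holds. Members under the filter are given as counts. All members were named; for likeness, the 3 nearest miRNAs of members at 10 CPM or more (log2 CPM, prior count 2).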

Additional observations from a re-analysis of the deposited data

How the results depend on the processing

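The main fit called 0 of 10 tested members and 3 of 463 miRNAs. With the replicate block edgeR called 1 member and 54 miRNAs, DESeq2 2 and 44, limma-voom 2 and 39, and edgeR on the totals behind the RPM 2 and 158. With the block and without both libraries of number 1, 2 or 3, it called 2, 1 and 0 members and 45, 31 and 5 miRNAs. Without the block DESeq2 called 1 member and 9 miRNAs. The count of miRNAs was 6 under the totals behind the RPM, with no filter and with limma on log2(RPM + 1), each with 0 members. Leaving out 1 library gave 0 to 1 members and 1 to 7 miRNAs. Over the totals behind the RPM the members held 0.0259% ± 0.00228 in sham (0.0239% to 0.0284%) and 0.0188% ± 0.00169 in CCI-ION (0.0173% to 0.0206%; SD, n = 3 each), where the groups did not overlap. On that scale the groups of 29.4% of all tested miRNAs were apart with CCI-ION lower. By mean, miR-375-3p held 0.0112% of these totals in sham and 0.0051% in CCI-ION, and the miR-200 family 3p strands 0.0067% and 0.0053%. The miR-203 strands held 0.0045% and 0.0041%, and miR-205 0.0035% and 0.0043%.

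miR-205 kept its sign in all 23 alternatives (called in 6), as did miR-375-3p (called in 5), miR-141-3p (called in 1) and miR-203b-5p (called in 0). Their sizes moved: leaving out 1 library took miR-141-3p from -0.98 (without CCI-ION library 2) to -0.29 (CCI-ION library 3) and miR-203b-5p from -0.47 (sham library 1) to -0.075 (sham library 2). Signs turned as follows, all uncalled, and the cause was not tested. Under the totals behind the RPM, with the block, and with limma on log2(RPM + 1), values were -0.27, -0.26 and -0.25 for miR-200b-3p, -0.093, -0.090 and -0.088 for miR-203a-3p, and -0.28, -0.27 and -0.21 for miR-429. Upper quartile factors gave 0.023 for miR-200a-3p and 0.022 for miR-200c-3p. Leaving out 1 library took miR-200a-3p from -0.31 to 0.16, miR-200b-3p from -0.20 to 0.47, miR-200c-3p from -0.23 to 0.040 and miR-429 from -0.12 to 0.30. With the block, leaving out a number gave -0.00011 (without number 1), -0.028 (number 2) and 0.25 (number 3) for miR-429 and took miR-203b-3p from -0.073 (number 2) to 0.65. Depth limits miR-429, miR-141-3p and miR-203b-3p, with 8 to 55 counts in a library.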
